A study of Mus musculus with 8 samples.

Results

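The 4 arrays described here, of 8 in the series, compare Gfp-positive cells of the caudal ventral midbrain with Gfp-negative cells. They were taken by their titles, Caudal 1 to Caudal 4, and each is a pool of 5 to 7 mouse embryos at E14.5, with embryos of different litters spread over the pools. Every embryo, in the caudal, rostral and reference samples alike, had the genotype Pitx3(gfp/+), so that 1 copy of Pitx3 carries Gfp in all of them. The ventral midbrain was cut into a rostral and a caudal piece, dissociated with papain and sorted for Gfp. Sorted cells were labelled with Cy3 (green). The reference, labelled with Cy5 (red) on every array, was Gfp-negative cells pooled from the embryos that gave the sorted ones. Whether it was 1 RNA pool on every array or a pool for each set of specimens is not stated; it is treated as 1 control sample whose own spread is not measured, and no array had the dyes swapped, so that a dye effect cannot be told apart from the difference between the cells. How much of the reference came from rostral and how much from caudal tissue is not stated, and a difference of region cannot be told apart from a difference of cell type. The 4 rostral arrays were used only to show where the caudal pools differ from them.

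Midbrain dopaminergic neurons make dopamine from tyrosine through Th and Ddc, load it into vesicles through the transporter Slc18a2 and take it back up through Slc6a3. They arise from floor plate progenitors that express Foxa2, Lmx1a and Shh, and the newborn neurons turn on Nr4a2 and Pitx3. In the adult they form the substantia nigra, whose degeneration underlies the motor signs of Parkinson disease, and the ventral tegmental area.

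The promoters of 3 genes of dopamine handling that stood far above the reference are shown because these genes rose together in every pool. They are the uptake transporter, the vesicular transporter and the enzyme that opens synthesis of the Th cofactor. Each run is the 250 bases before the RefSeq gene start (GRCm38.p6), 5′ to 3′ on the gene's strand. Slc6a3 lies at chr13:73536497-73536746 (plus strand), Slc18a2 at chr19:59260628-59260877 (plus strand) and Gch1 at chr14:47189414-47189663 (minus strand).
Slc6a3: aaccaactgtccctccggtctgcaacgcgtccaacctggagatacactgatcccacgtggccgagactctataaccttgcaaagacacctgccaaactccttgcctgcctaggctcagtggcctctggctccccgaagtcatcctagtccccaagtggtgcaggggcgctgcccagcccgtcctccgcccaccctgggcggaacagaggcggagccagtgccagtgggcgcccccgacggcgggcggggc
Slc18a2: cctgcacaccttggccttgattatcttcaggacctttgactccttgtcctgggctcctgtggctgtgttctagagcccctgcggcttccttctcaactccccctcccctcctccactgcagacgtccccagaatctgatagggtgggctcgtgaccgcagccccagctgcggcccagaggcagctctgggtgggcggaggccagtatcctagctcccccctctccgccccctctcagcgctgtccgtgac
Gch1: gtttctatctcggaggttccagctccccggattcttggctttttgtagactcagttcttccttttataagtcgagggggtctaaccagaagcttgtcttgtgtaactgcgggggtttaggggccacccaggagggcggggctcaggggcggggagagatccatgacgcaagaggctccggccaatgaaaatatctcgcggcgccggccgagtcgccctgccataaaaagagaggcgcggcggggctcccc
These letter strings were searched on both strands, and none is contained in another: AAAGGTCA, the NBRE string bound by Nr4a2, TAATCC, bound by bicoid-type homeodomain proteins such as Pitx3, and TGTTTAC, bound by forkhead proteins such as Foxa2. None of these strings is in the 3 windows shown, nor in those of Slc35d3 and Slc10a4. Of 16672 promoters of tested genes, 1.04% held the NBRE string, 5.33% the bicoid string and 2.34% the forkhead string. Among the 545 promoters of genes called and at least 2-fold higher, 11 (2.02%) held the NBRE string, 3.85% the bicoid string and 2.57% the forkhead string. Among the 1602 promoters of genes called and at least 2-fold lower the shares were 0.999%, 6.43% and 2.62%. These shares are descriptions of letters in short windows, with no test.

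Each value below is a log2 ratio of green over red, positive where the sorted cells were brighter. A gene was tested if its brightest probe stood well above background in either channel on at least 2 of the 4 arrays, which 18089 of 23606 named genes did. In the channel of the sorted cells 62.5% to 68.8% of probes stood well above background, in that of the reference 54.0% to 59.7%, and no spot was saturated. All arrays lay on 1 slide, pools 1 and 2 in its first row and pools 3 and 4 in its second. Across genes, which are not independent replicates, ratios of any 2 caudal arrays correlated at 0.872 to 0.901. The median SD of a gene over the 4 pools was 0.169. The p-values are 2-sided, from limma with Benjamini-Hochberg adjustment over all 18089 genes, and a gene is called at an adjusted p below 0.05. They measure only the spread between pools, and with 4 arrays the precision is limited.

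Limma called 10201 genes (56.4%), 4773 higher (26.4%) and 5428 lower (30.0%) in caudal Gfp-positive cells. The shares of 26.4% and 30.0% are the ones to set beside the counts of each gene list below. With so many called, a call alone says little about a single gene, and size separates them. A change of at least 2-fold was called for 639 genes upward (3.53%) and 1713 downward (9.47%). At 4-fold the counts were 133 and 609, at 8-fold 28 and 215, and at 32-fold 6 and 8. The falls thus outnumbered the rises at each of these sizes. The scanner's processed signals gave 1595 genes at least 2-fold higher and 2309 lower, and median centring 1072 and 1473, so the number of 2-fold rises depends on the scaling. The split of all calls moved with the scaling. Centring each array on its median, which raises the median of all genes from -0.000896 to 0.123, gave 6624 higher and 4250 lower, and the scanner's processed signals gave 5669 and 4707.

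**Figure D1:**
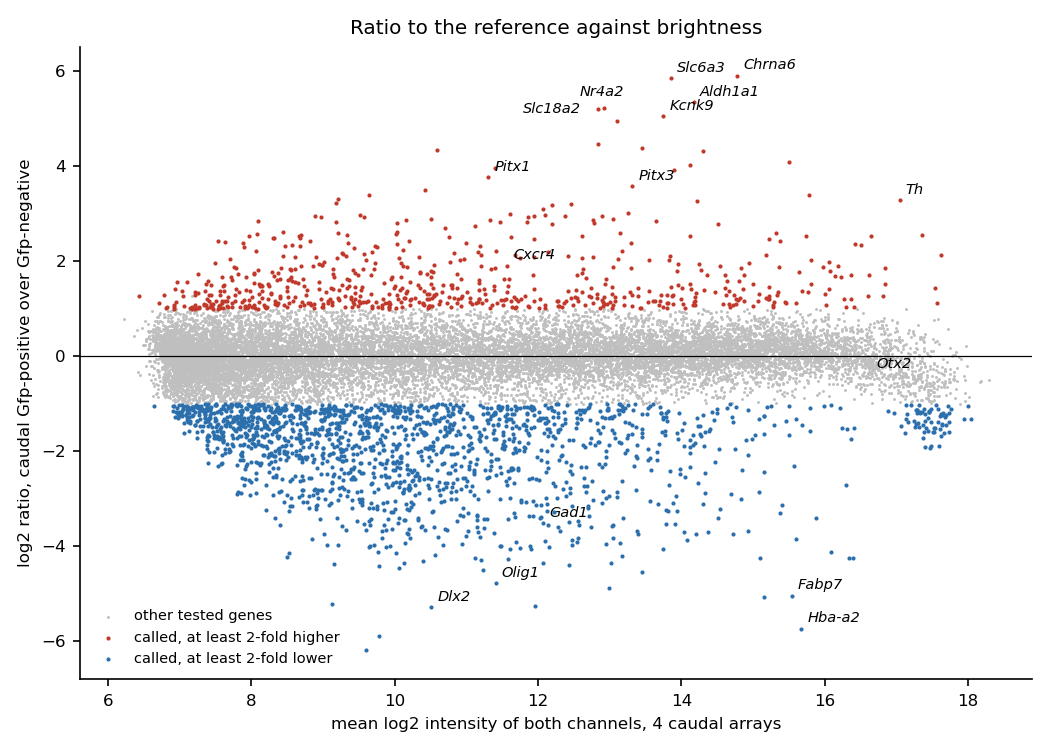
Log2 ratio of caudal Gfp-positive cells over the Gfp-negative reference (vertical axis) against the mean log2 intensity of both channels (horizontal axis) for 18089 genes, each point the mean of 4 arrays. Red points are the 639 genes called and at least 2-fold higher and blue points the 1713 called and at least 2-fold lower; Chrna6 stands highest at 5.91.

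The sort was checked first on the gene that carries the reporter. Pitx3 gave log2 ratios of 3.58, 3.73, 3.54 and 3.50 in caudal pools 1 to 4, a mean of 3.59 (SE 0.059, adjusted p = 2.04e-07). The pools lay within 0.23 of each other on the log2 scale. This checks the label and is no further result, since cells were selected by the reporter at this locus.

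Genes of dopamine handling were among the most raised. Of 18 tested, 10 were called higher, 4 lower and 4 were not called, with a median of 1.08 against -0.000896 over all tested genes. Slc6a3, the plasma membrane dopamine transporter, gave 5.95, 5.91, 5.85 and 5.71 in pools 1 to 4. All 4 values were within 0.23 of each other, and the mean of 5.86 (SE 0.056, adjusted p = 5.91e-08) made it 57.9-fold higher than the reference. Slc18a2, which fills synaptic vesicles with monoamines, gave 5.22, 5.08, 5.31 and 5.26, a mean of 5.22 (SE 0.062, adjusted p = 6.03e-08). Th, the enzyme whose step limits the rate at which dopamine is made, gave 3.30, 3.21, 3.39 and 3.24, a mean of 3.29 (SE 0.038, 9.76-fold, adjusted p = 5.91e-08). The ratio of Th was thus smaller than those of both transporters, although a ratio to a common reference does not rank the levels of different genes. Ddc, which turns L-DOPA into dopamine, gave 2.22, 2.12, 2.16 and 2.07 (mean 2.14, adjusted p = 1.79e-07), and a dimmer second probe of the gene averaged 4.42, so that its size is uncertain while both probes were high.

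The cofactor branch of the pathway did not move as a block. Gch1, the first enzyme of tetrahydrobiopterin synthesis, gave 4.34, 4.46, 4.12 and 4.38, a mean of 4.33 (20.1-fold higher, adjusted p = 1.40e-07). The later enzymes Pts and Spr were not raised with it. Pts averaged 0.06 (adjusted p = 0.622), while Spr fell, with -1.03, -0.63, -0.67 and -0.80 in pools 1 to 4 (adjusted p = 0.000367). Qdpr averaged 0.22 and was not called (adjusted p = 0.155). It was called higher with median centring (0.54, adjusted p = 0.00657) and with the scanner's processed signals (0.42, adjusted p = 0.0355). Gchfr, the feedback inhibitor protein of Gch1, fell in every pool, with -1.78, -1.40, -2.39 and -2.50, a mean of -2.02 (4.05-fold lower, adjusted p = 0.000201). So the enzyme and its inhibitor lay on opposite sides of the reference. Pcbd1, which regenerates the cofactor, was higher by 0.62 (adjusted p = 0.000267).

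Among genes that break dopamine down, the monoamine oxidase gene Maob fell, with -1.02, -1.81, -0.98 and -0.94 in pools 1 to 4 (adjusted p = 0.00111), pool 2 being the lowest. Maoa averaged -0.49 (adjusted p = 0.00365) but was not called with median centring (-0.14, adjusted p = 0.196). Drd2, the dopamine autoreceptor, gave 2.41, 1.96, 1.99 and 1.91, a mean of 2.07 (adjusted p = 2.44e-05), with pool 1 above the others. Slc10a4, a protein of monoaminergic and cholinergic vesicles, averaged 3.97 (15.7-fold) and the orphan carrier Slc35d3 4.47 (22.2-fold), each with 4 pools within 0.43. Slc10a4l, annotated as a like gene, averaged 4.02, and whether its probe shares signal with Slc10a4 was not tested. Of 2 list members that serve other amine cells, neither was called: Dbh, which makes noradrenaline and was above background on only 2 of 4 arrays in either channel, gave -0.62, 1.32, 0.19 and -0.51 (adjusted p = 0.805) and Slc18a1, the endocrine vesicular transporter, 1.15, -0.14, 0.35 and -0.05 (adjusted p = 0.244).

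**Figure D2:**
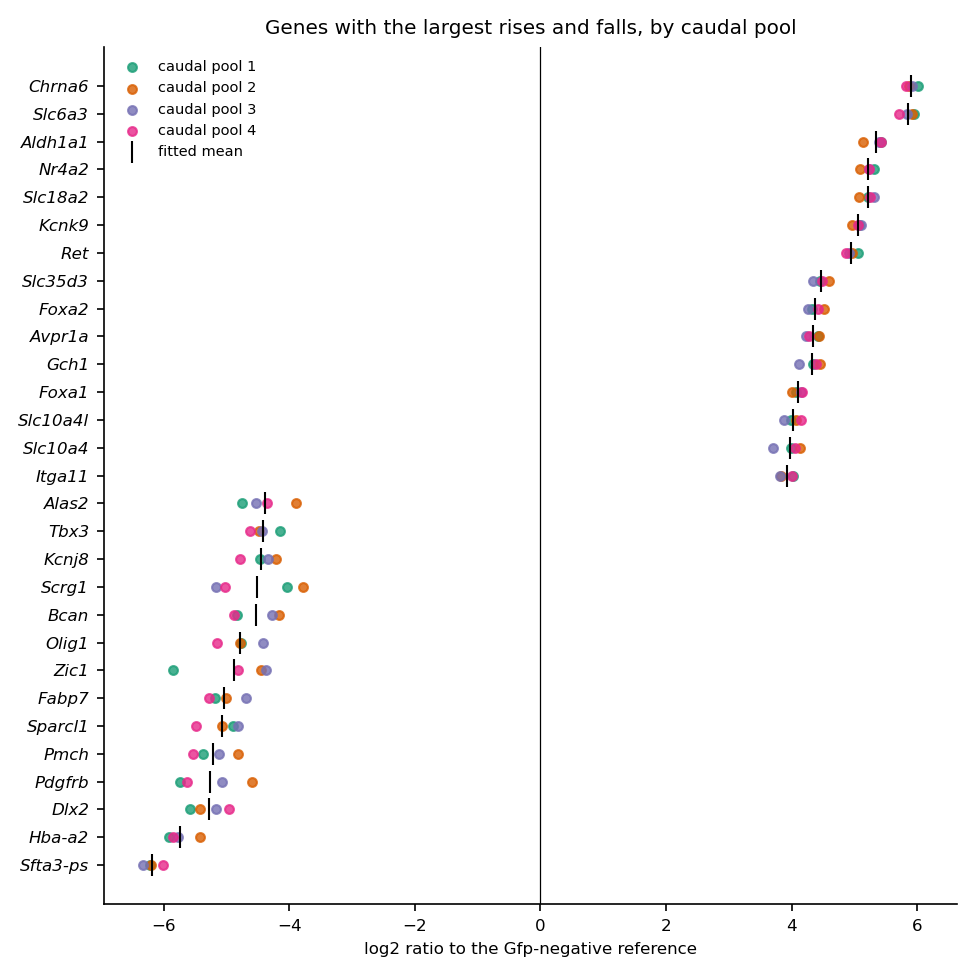
Log2 ratio to the Gfp-negative reference (horizontal axis) in each of 4 caudal pools (coloured points) for the 15 named genes with the largest rises and 14 of those with the largest falls (vertical axis), with the fitted mean as a black tick. The pools of a rising gene sit close together, as Kcnk9 between 4.96 and 5.11, while those of Zic1 run from -5.84 to -4.38.

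Among transcription factor genes of these neurons, 12 of 22 were called higher, 7 lower and 3 not called, with a median of 0.679. Nr4a2, the orphan nuclear receptor that the dopaminergic fate requires, gave 5.31, 5.10, 5.23 and 5.24 in pools 1 to 4, a mean of 5.22 (SE 0.06, 37.3-fold, adjusted p = 5.91e-08). The floor plate forkhead genes Foxa2 (4.33, 4.51, 4.26 and 4.42) and Foxa1 (4.07, 4.0, 4.16 and 4.16) were both at 4.0 or above in every pool, with adjusted p of 1.13e-07 and 5.91e-08. Lmx1a, a LIM homeodomain factor of the dopaminergic lineage, gave 3.44, 3.35, 3.43 and 3.35, a mean of 3.39 (adjusted p = 5.91e-08). Its relative Lmx1b, also used by other neurons of the region, gave -0.08, 0.42, 0.43 and 0.08, which lay on both sides of 0 and was not called (adjusted p = 0.201). The engrailed genes En1 (2.46, 2.59, 2.51 and 2.38) and En2 (2.40, 2.23, 2.33 and 2.41), needed for survival of the neurons, were raised 5.60-fold and 5.07-fold.

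Smaller rises were called for Ebf2 (1.37), Neurog2, a proneural gene of the lineage (1.12), Ebf3 (0.79) and Pbx3 (0.57). The orphan receptor genes Nr2f1 (-2.31) and Nr2f2 (-2.33) fell. Otx2, which sets midbrain identity and is kept in ventral tegmental neurons, gave -0.29, -0.57, -0.36 and -0.25, a mean of -0.37 (adjusted p = 0.00172), and was not called with the scanner's processed signals (-0.12, adjusted p = 0.208). Bcl11a averaged -0.73 (adjusted p = 0.000126), with other probes at -0.05 and -0.62. Sox6, a substantia nigra factor, averaged -0.41 (adjusted p = 0.0163) but was above background on only 2 of 4 arrays and lost its call without pool 2 (adjusted p = 0.06) or without pool 3 (0.0643). Msx1 (0.22) and Ebf1 (0.01) were not called.

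Receptors and channels held the largest single rise. Chrna6, the nicotinic subunit typical of dopaminergic and retinal neurons, gave 6.02, 5.88, 5.92 and 5.82 in pools 1 to 4, a mean of 5.91 (SE 0.047, 60.0-fold, adjusted p = 5.03e-08). Of 9 tested nicotinic subunits 4 were called higher and 3 lower, against 26.4% and 30.0% of all tested genes. Chrnb3, which assembles with Chrna6, gave 2.42, 2.92, 2.59 and 2.19, and since the reference was not well above background on any caudal array the rise is given as at least 5.57-fold. Chrna4 (1.38) and Chrnb2 (1.03) rose as well, whereas Chrnb4, of autonomic and habenular receptors, fell (-1.26, -1.72, -1.30 and -1.41, adjusted p = 9.77e-05). Chrna5, which can join the same receptors, averaged -0.85 and was called lower.

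Of 31 tested ion channel genes, 17 were called higher, 4 lower and 10 not called, with a median of 0.376. Kcnk9, a leak potassium channel, gave 5.08, 4.96, 5.11 and 5.05 (mean 5.05, adjusted p = 5.91e-08), but a second probe averaged 1.60. The brighter probe carries a clone name in the deposited annotation and was brought to the symbol Kcnk9, so the size of the rise is uncertain. Kcnip4, a potassium channel interacting protein, gave 3.17, 2.69, 3.06 and 3.13 (adjusted p = 1.42e-06). Cacna2d3, a calcium channel accessory subunit, rose by 1.93, and Kcnn2, a calcium-activated potassium channel, by 1.84. Kcnj6 (0.43), Kcnn3 (0.22) and Cacna1d (0.24) were among the 10 not called.

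Among 19 neurotrophic factors and receptors, 6 were called higher and 5 lower, with a median of 0.0062. These counts lie near the shares over all tested genes (26.4% and 30.0%), so only single members are described. Ret, the signalling receptor for GDNF family ligands, gave 5.05, 4.96, 4.92 and 4.87, a mean of 4.95 (30.9-fold, adjusted p = 5.91e-08). Its GDNF-binding partner Gfra1 gave 1.94, 1.77, 1.78 and 1.61 (adjusted p = 1.48e-05). The ligand genes Gdnf (-0.93, adjusted p = 0.0449, near the threshold) and Nrtn (-0.67, adjusted p = 0.000348) were called lower. Ret and Gfra1 thus lay on the other side of the reference from these ligands, while Gfra2 (0.15), Gfra3 (-0.44) and Gfra4 (0.15) were not called. The neurotrophin genes Ntf3 (1.80, 2.79, 2.30 and 2.31, adjusted p = 5.47e-05) and Bdnf (1.41, 1.53, 1.89 and 1.13, adjusted p = 0.000118) were both higher in every pool. Their receptors were not: Ntrk2 averaged -0.13 and was not called, and Ntrk3 averaged -0.84 and was called lower. Erbb4, the neuregulin receptor, averaged 2.59 (adjusted p = 5.41e-07), but its second probe averaged -0.01. Avpr1a, a vasopressin receptor outside these lists, gave 4.42, 4.44, 4.23 and 4.28 (20.3-fold, adjusted p = 4.39e-07).

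Most genes of Wnt and Hedgehog signalling were lower: 22 of 27 were called lower and 3 higher, with a median of -1.17. The 3 that rose encode secreted proteins. Rspo3, a Wnt enhancer, gave 2.60, 2.36, 2.69 and 2.72 (adjusted p = 6.10e-06), Wnt5a averaged 2.18 and Shh, the floor plate morphogen, 1.92. The Hedgehog response genes Gli1 (-1.74) and Ptch1 (-0.41) and the transducer Smo (-1.66) were called lower. On the Wnt side the receptor gene Fzd9 gave -3.30, -3.11, -3.51 and -3.50, and the secreted inhibitors Sfrp1 (-2.82) and Sfrp2 (-2.93) fell too. Tcf7l2, a nuclear effector, averaged -3.57, its other probes -0.41 and -2.23.

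Axon guidance and migration genes split into 13 called higher and 19 lower of 40, against 26.4% and 30.0% of all tested genes. Cxcr4, a chemokine receptor of migrating neurons, gave 1.89, 2.05, 1.74 and 1.95 (adjusted p = 5.63e-06). Its ligand gene Cxcl12 gave -3.93, -1.69, -4.25 and -4.80, with pool 2 far above the others; it was called lower (adjusted p = 0.000752), but a dimmer probe of the gene averaged 1.38, so its direction is uncertain. The adhesion gene Chl1 (1.54), Alcam (1.45), the semaphorin receptor Nrp2 (1.27) and the reelin receptor Lrp8 (1.06) were called higher. Sema3c (-2.72), Robo3 (-2.19) and Sema3a (-2.12) fell, pool 4 of Sema3a (-1.42) lying above the other pools (-2.42 to -2.27).

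Of 18 genes of retinoic acid metabolism and response 4 rose and 11 fell. Aldh1a1, which makes retinoic acid and marks ventral nigral neurons, gave 5.43, 5.14, 5.39 and 5.42, a mean of 5.35 (40.7-fold, adjusted p = 5.91e-08). Rbp4, the retinol carrier, rose (2.32, 2.41, 2.23 and 1.85, adjusted p = 1.22e-05). Cyp26b1, which degrades retinoic acid, fell (-4.26, -3.32, -3.06 and -3.52, 11.6-fold, adjusted p = 1.25e-05), as did the binding protein Crabp1 (-1.89) and the retinol receptor Stra6 (-1.79). Aldh1a7, close in sequence to Aldh1a1, averaged 1.56 (adjusted p = 0.000304), and cross-hybridisation between them was not tested.

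Neither adult subdivision list stood as a whole above the reference. Of 17 substantia nigra associated genes 8 were called higher and 7 lower (median 0.115), and of 21 ventral tegmental area associated genes 10 and 6 (median 0.26). On the nigral side Slc6a3, Aldh1a1 and Drd2 were high, while Fgf1 (-2.48, -2.32, -3.39 and -3.0, adjusted p = 4.51e-05), Sncg (-1.50) and Ndnf (-1.07) were low. On the tegmental side the peptide gene Cck gave 2.58, 2.46, 2.59 and 2.60 (adjusted p = 1.13e-07) and the synapse organiser Cbln1 1.75, 2.16, 1.94 and 1.90 (adjusted p = 3.51e-06). Slc17a6, the vesicular glutamate transporter that some dopaminergic neurons carry, averaged 0.59 and was called higher. Crym (-3.94), Fst (-2.34) and Neurod6 (-1.71) fell.

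Neuropeptide and granule genes gave 9 higher and 12 lower of 24. Besides Cck, the secretogranin gene Scg2 (2.54), Chgb (1.44), the convertase Pcsk2 (0.99) and the gastrin releasing peptide gene Grp (0.95) were called higher. Peptides of other neurons fell, among them Pmch of the hypothalamus (-5.37, -4.82, -5.13 and -5.53, adjusted p = 1.01e-06), Npy (-3.86, -2.67, -3.70 and -3.68, adjusted p = 1.76e-05), Sst (-3.0) and Pnoc (-2.62). The sorted cells were well above background for Pmch on only 1 of 4 arrays, and the scanner's processed signals gave -7.73, so that the size of its fall is uncertain.

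Genes of neuronal maturity lay near the reference. Of 13 pan-neuronal genes 7 were called higher and 3 lower (median 0.283; 6 lower with median centring). The neurofilament gene Nefm gave 0.67, 1.31, 0.72 and 0.54 (adjusted p = 0.00352). Dcx, of migrating young neurons, gave -0.11, 1.15, 1.53 and 0.38 and was not called (adjusted p = 0.0517), although it was called with the scanner's processed signals (1.33, adjusted p = 0.0433). Nsg2 fell (-1.27, -1.25, -1.12 and -1.21, adjusted p = 1.16e-06). Of 29 synaptic vesicle genes 12 rose and 6 fell (median 0.179), all falls by less than 2-fold. Syt4 (1.48), the syntaxin gene Stx1a (1.16), Nrxn3 (1.12, second probe -0.34) and Sv2b (1.03) rose at least 2-fold.

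Of 22 genes linked to Parkinson disease 10 were called higher and 6 lower (3 lower without pool 3), with a median of 0.179. Over all tested genes the shares were 26.4% and 30.0%. Rab29, a trafficking GTPase, gave -2.22, -2.19, -2.09 and -1.68 (4.12-fold lower, adjusted p = 2.69e-05). Changes of less than 2-fold were called for Pla2g6 (0.81), Uchl1 (0.69), Pink1 (-0.48) and Chchd2 (-0.97). Lrrk2 (0.18) and Park7 (-0.10) were not called.

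Cell cycle genes were lower: 22 of 25 were called lower and 2 higher, with a median of -1.25. The cyclin Ccna2 gave -3.01, -3.28, -2.53 and -3.25 (8.10-fold, adjusted p = 6.03e-06) and Mki67, a marker of proliferating cells, -2.84, -2.66, -2.28 and -2.92 (adjusted p = 1.27e-05). The pools did not differ in direction for either. The 2 that rose, Cdkn1c (0.57) and Cdkn1b (0.33), encode inhibitors of cyclin-dependent kinases.

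Markers of the other cell types that the tissue holds were mostly low. In bulk samples, fewer cells of a type and less RNA per cell cannot be told apart. Of 15 progenitor and radial glia genes 14 were called lower (median -2.91), as Fabp7 (-5.19, -5.0, -4.69 and -5.28, 32.9-fold, adjusted p = 3.43e-07), Sox1 (-4.35), the glutamate transporter gene Slc1a3 (-4.07), Sox9 (-3.99) and Sox2 (-3.63). All 15 were still above background in all 4 pools. All 7 oligodendrocyte precursor genes fell (median -3.67), as Olig1 (-4.77, -4.78, -4.42 and -5.15, 27.5-fold, adjusted p = 7.88e-07), Pdgfra (-3.96), Olig2 (-3.67) and Bcan (-4.54, second probe -3.03). Outside these lists, Sparcl1 (-4.90, -5.07, -4.82 and -5.48, 33.5-fold) and Scrg1 (-4.04, -3.78, -5.17 and -5.03, 22.7-fold) were among the 15 largest falls.

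Markers of neurons of other transmitters were low in part. Of 12 GABAergic genes 10 fell (median -3.34), as Gad1, which makes GABA (-3.76, -2.95, -3.56 and -3.82, 11.5-fold, adjusted p = 5.63e-06), Tal2 (-4.03), Tal1 (-3.74) and Gata3 (-3.67). Six6 did not rise well above background in a single caudal pool and is given as at least 17.4-fold lower. Gad2 fell by less (-0.63) and the vesicular GABA transporter gene Slc32a1 (-0.59) was not called. Of 12 glutamatergic and red nucleus genes 7 fell and 1, the transporter gene Slc17a6 (0.59), rose. Pou4f2 reached -4.64, -3.48, -4.44 and -4.25 (18.4-fold, adjusted p = 6.03e-06) and Pou4f1 -2.94. Of 11 motor and oculomotor genes 5 fell, as Isl2 (-3.15) and Prph (-2.24), and Ache (0.40) was called higher, though not without pool 4. The cholinergic genes Chat (-0.23) and Slc18a3 (-0.23) were not called. Serotonergic genes gave 5 falls of 7, as Fev (-2.03, -1.77, -1.94 and -1.83, adjusted p = 1.29e-05) and the serotonin transporter gene Slc6a4 (-1.16). Noradrenergic genes gave 3 of 6, Tfap2b being the lowest (-3.67), while Dbh (0.10) and Slc6a2 (0.22) were not called.

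Genes of neighbouring territories were mostly low. Of 25 diencephalic and rostral genes 24 were called lower (median -2.85), 22 of them at least 2-fold. Dlx2, of forebrain GABAergic territory, gave -5.57, -5.42, -5.17 and -4.96 (38.9-fold), Zic1 -5.84, -4.46, -4.38 and -4.82 (29.3-fold) and the hypothalamic gene Fezf1 -4.39, -3.83, -4.27 and -4.07 (above background on 1 of 4 arrays, -7.12 with the scanner's processed signals, so of uncertain size). The pseudogene Sfta3-ps did not rise well above background in a single caudal pool and was at least 70.8-fold lower. Tbx3, outside these lists, gave -4.14, -4.49, -4.43 and -4.62 (21.4-fold). Of 18 isthmic, hindbrain and caudal genes 10 fell and 1 rose (median -0.457). Etv5 (-2.87), Pax8 (-2.24) and Spry1 (-1.90) fell, and Gbx2, of anterior hindbrain, was at least 4.12-fold lower with no pool above background. The riser was Pitx1, a paralog of Pitx3, with 3.80, 3.85, 3.72 and 3.73 (13.7-fold, adjusted p = 3.86e-07).

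Erythroid, pericyte and endothelial genes mostly fell, unlike those of microglia. All 13 erythroid genes were called lower (median -3.74), as the globin gene Hba-a2 (-5.91, -5.42, -5.77 and -5.84, 53.3-fold, adjusted p = 1.32e-07) and Alas2, of heme synthesis (20.9-fold). Probes of the near-identical globin genes may take each other's signal. All 11 pericyte and mesenchyme genes fell (median -3.19), as Pdgfrb (-5.75, -4.60, -5.07 and -5.62, 38.3-fold, adjusted p = 3.14e-06), Kcnj8 (21.9-fold) and Col3a1 (11.9-fold). Of 11 endothelial genes 10 fell (median -1.64), as Cldn5 (-2.76) and Cdh5 (-2.21), while Pecam1 averaged 0.11 and was not called. The 11 microglia genes stood near the reference: 1 was called higher and none lower (median 0.264), at an adjusted p of 0.0488 for Ptprc, which was above background on 2 of 4 arrays in the sorted cells and on none in the reference, and which lost its call whenever any 1 pool was left out. Csf1r gave -0.79, -0.76, 0.30 and -0.20 and Aif1 0.50, -0.11, 0.93 and 0.16, and 9 of the 11 were above background in all 4 pools. Without pool 2 limma called 5 of them higher, and without pool 3 it called 1 lower. Of 9 dissociation stress genes 5 were called lower (3 without pool 2) and 1 higher (0 without pool 4), as Fos (-0.95, -1.28, -2.02 and -1.25, adjusted p = 0.00051).

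**Figure D3:**
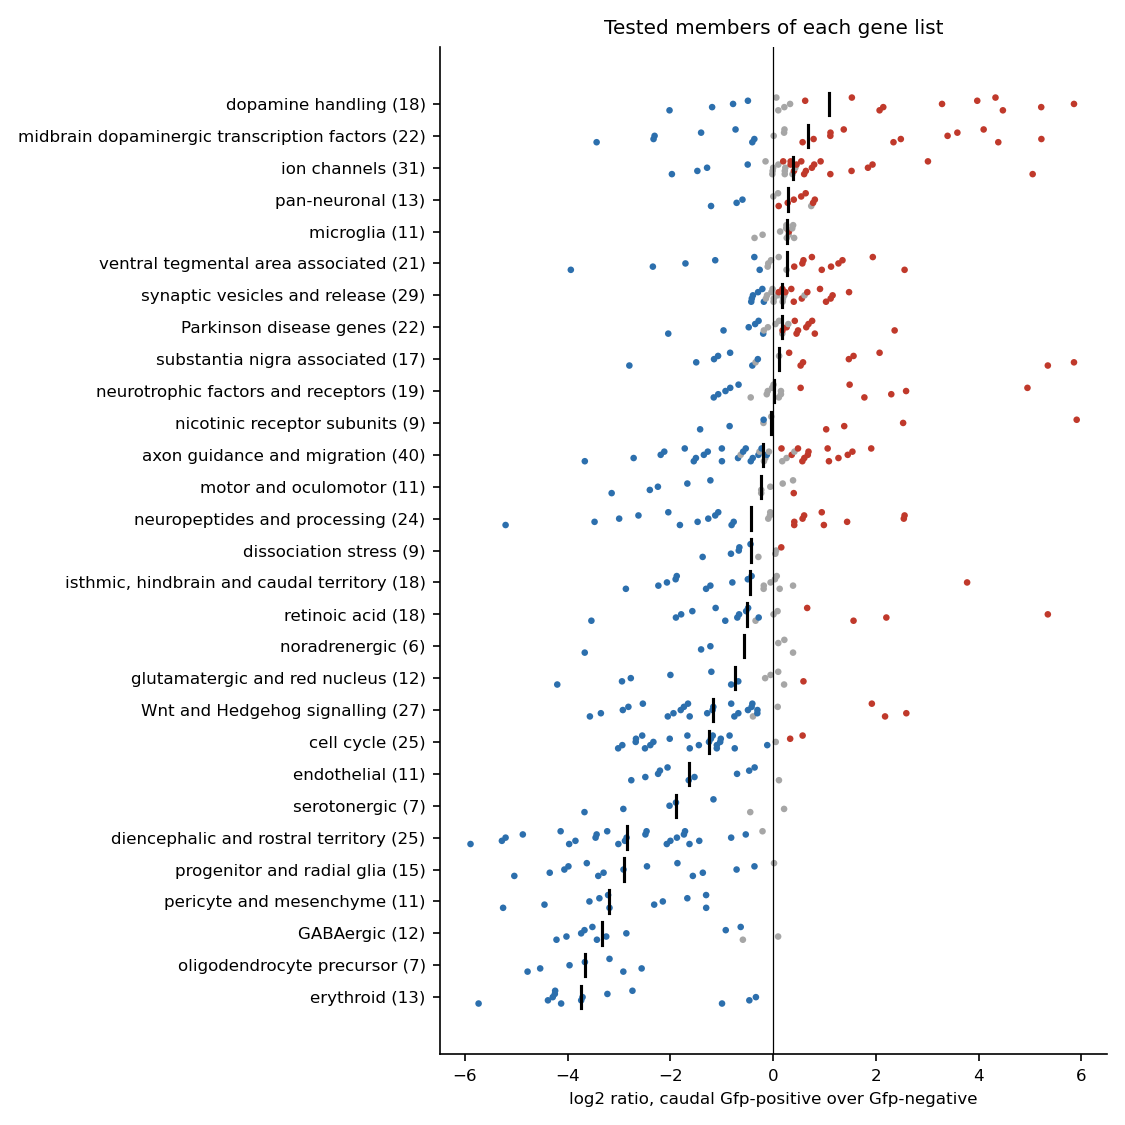
Log2 ratio of caudal Gfp-positive cells over the reference (horizontal axis) for every tested member (points, number in brackets) of 29 gene lists (vertical axis), ordered by their median (black tick). Red points were called higher, blue points called lower and grey points not called; the dopamine handling list has the highest median, 1.08, and the erythroid list the lowest, -3.74.

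The spread among the 4 caudal pools was uneven between genes. By the rule for named genes, the genes with the largest SD among those above background in both channels on all arrays included Oasl2, Rtp4, Cxcl12, Cbr3, Clec7a, Efhb and Crh. Oasl2, an interferon-induced gene, gave -3.09, -0.78, -2.46 and -4.43, and Rtp4, another, -1.21, 1.29, -2.0 and -1.52. Pool 2 was the highest for both, and Rtp4 was called lower without it (-1.58, adjusted p = 0.000933). The reductase gene Cbr3 gave -2.04, -2.31, -2.87 and -4.79, with pool 4 the lowest. The stress peptide gene Crh gave -4.50, -4.02, -4.19 and -1.93, with pool 4 the highest, and Efhb gave -1.56, -3.66, -1.29 and -1.04, with pool 2 the lowest. Clec7a, a myeloid receptor, gave 0.15, -1.58, 1.35 and 0.58 and C1qa, of microglia, 0.36, -0.64, 1.23 and 0.60, with pool 2 lowest and pool 3 highest for both.

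Other genes in which pool 2 stood apart were Gata3 (-4.14, -2.67, -3.99 and -3.89), Tal1 (-4.0, -2.92, -4.0 and -4.04) and Npy, named here after their values were seen. Pool 2 was the highest for each of these 3 genes and for Dbh (1.32). The median of the GABAergic list ran from -3.69 to -2.66 over the pools, that of the erythroid list from -4.21 to -3.12 and that of the microglia list from -0.37 to 0.86. Th ran from 3.21 to 3.39, Slc6a3 from 5.71 to 5.95 and the median of the dopamine handling list from 1.03 to 1.35. Other members of that list were wider, as Dbh (-0.62 to 1.32) and Gchfr (-2.50 to -1.40). Since the variable genes above were chosen by their spread or after their values were seen, a smaller spread elsewhere is no result. The part of contaminating cells in the spread between pools was not tested.

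**Figure D4:**
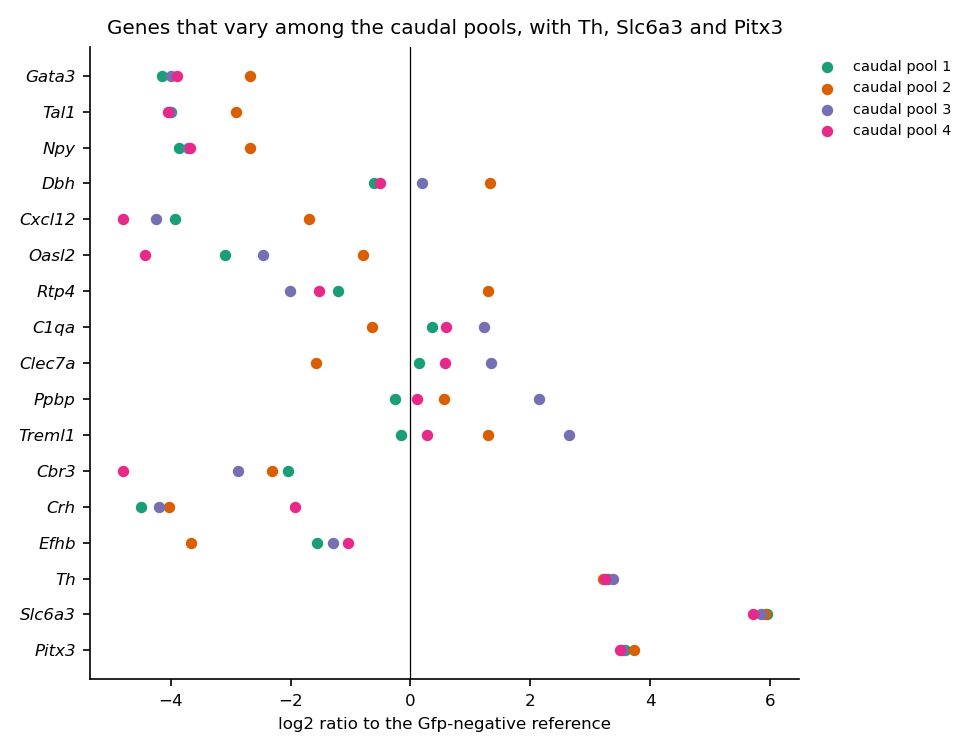
Log2 ratio to the Gfp-negative reference (horizontal axis) in each caudal pool (coloured points) for 14 genes that vary among the pools, chosen after their values were seen, and for Th, Slc6a3 and Pitx3 (vertical axis). Pool 2 (orange) is the highest for Gata3, Tal1, Npy, Dbh, Cxcl12, Oasl2 and Rtp4; the pools of Th lie between 3.21 and 3.39.

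The caudal pools were last set against the 4 rostral pools, which were hybridised against the same kind of reference. The difference, caudal minus rostral, was tested over all 18089 genes with limma. These genes and their probes were chosen on the caudal arrays alone. A gene above background only in rostral sorted cells was thus left out, and the 2 directions were not filtered alike. If the reference was not 1 RNA pool throughout, a difference between reference pools cannot be told apart from one between sorted cells. The difference was called for 968 genes (5.35%), 445 higher in caudal (2.46%) and 523 higher in rostral cells (2.89%). The 2 sets of 4 values did not overlap for 2090 genes (11.6%). Leaving out caudal pool 1 gave 587 genes, caudal pool 4 gave 614, and the replicate number as a block 574. Within the first slide row none was called (2263 at an unadjusted p under 0.05) and within the second 66 (2323 unadjusted). Among 923 genes at least 2-fold above the reference in the mean of either set, 106 were called higher in caudal and 100 higher in rostral cells (22.3% together). Among the 2039 at least 2-fold below it the counts were 119 and 139 (12.7%), and among the other 15127 they were 220 and 284 (3.33%).

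Among the genes at least 2-fold above the reference in either set, the largest difference in favour of caudal cells was in Pitx1. It gave 3.80, 3.85, 3.72 and 3.73 in caudal pools 1 to 4 and 1.59, 0.89, -0.47 and 0.93 in rostral pools 1 to 4, a difference of 3.04 (SE 0.35, adjusted p = 0.00226). The caudal pools lay within 0.14 of each other and the sets did not overlap. Cxcr4 gave 1.89, 2.05, 1.74 and 1.95 against 0.12, 0.42, -2.09 and -0.16, a difference of 2.34 (adjusted p = 0.0194), and lost its call without caudal pool 1, 2 or 4 (adjusted p up to 0.0547). The homeobox gene Nkx2-9 gave 2.32, 2.19, 1.97 and 2.34 against -0.91, 1.19, -0.40 and -0.005 (difference 2.24, adjusted p = 0.00992). In these genes the rostral pools were the more spread, and the sets stayed apart. Rostral pool 3 was the lowest for Pitx1 and Cxcr4, though not for Nkx2-9.

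The integrin gene Itga11 gave 4.02, 3.83, 3.82 and 4.01 against 2.58, 2.60, 0.21 and 2.19 (difference 2.03, adjusted p = 0.0331), and lost its call without any 1 caudal pool or without rostral pool 4. The prostaglandin transporter gene Slco2a1 gave 3.50, 3.08, 2.89 and 3.34 against 1.92, 1.71, 0.22 and 1.57 (adjusted p = 0.0127). The receptor gene Gipr gave 3.20, 2.83, 2.76 and 3.18 against 1.59, 1.47, 0.56 and 1.07 (adjusted p = 0.00263) and the melanocortin receptor gene Mc3r 3.08, 2.51, 2.58 and 3.01 against 0.84, 1.84, 0.67 and 1.26 (adjusted p = 0.00609). For all of these the rostral pools were themselves above the reference, and the caudal ones higher still. Rostral pool 3 was the lowest for Itga11, Slco2a1, Gipr and Mc3r alike, which enlarges these differences. The Wnt receptor gene Fzd10 (difference 1.77), Arhgap29 (1.70), Fam210b (2.01), Lyzl4 (2.18) and the free fatty acid receptor gene Ffar2 (1.63) completed the 12 largest, with rostral means near the reference, from -0.34 to 0.37.

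Genes of dopamine handling differed less. Slc18a2 gave 5.22, 5.08, 5.31 and 5.26 in caudal and 4.73, 4.79, 4.53 and 4.58 in rostral pools, a difference of 0.56 (adjusted p = 0.00762). Gch1 (0.41) and Slc35d3 (0.94) were also called higher in caudal cells, but Gch1 was not with median centring (0.34, adjusted p = 0.116), with the replicate block (0.0514), or without caudal pool 1, 2 or 4 or rostral pool 1 or 3. Th (difference -0.10, SE 0.059, adjusted p = 0.448), Slc6a3 (-0.24, adjusted p = 0.106) and Pitx3 (adjusted p = 0.998) were not called different. Aldh1a1 gave 5.43, 5.14, 5.39 and 5.42 against 5.97, 6.06, 5.75 and 5.86, so that it was lower in caudal cells by 0.57 on the log2 scale (adjusted p = 0.00821).

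Transcription factor genes showed larger differences. Otx2 gave -0.29, -0.57, -0.36 and -0.25 in caudal and -2.53, -1.54, -3.45 and -2.24 in rostral pools, a difference of 2.07 (adjusted p = 0.00688). It was therefore near the reference in caudal cells and below it in every rostral pool. En2 was higher in caudal cells by 0.90, En1 by 0.78 and Msx1 by 0.92; with the replicate block En1 (adjusted p = 0.0606) and Msx1 (0.0614) were not called, nor was En1 without caudal pool 2 (0.0513). Nr2f2 (-1.67), Nr2f1 (-1.16), Bcl11a (-1.01), Pbx3 (-0.75) and Ebf2 (-0.64) were lower. Ebf2 lost its call with the replicate block (adjusted p = 0.0906), without any 1 rostral pool and without caudal pool 1, 2 or 4. Of the 25 diencephalic and rostral genes 8 were lower in caudal than in rostral cells and 2 higher, against 2.89% and 2.46% of all tested genes. Among genes at least 2-fold below the reference in either set, where most of this list lay, 12.7% were called different. The 8 included Dlx2 (-3.13), Fezf1 (-3.23) and Pmch (-3.47), the sizes of the last 2 being uncertain for the same reason. Bdnf was lower in caudal cells (1.41, 1.53, 1.89 and 1.13 against 2.54, 2.50, 3.06 and 2.54, adjusted p = 0.00718) while above the reference in both.

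Among the 12 genes of the same choice most in favour of rostral cells, Nwd2 gave 0.60, 1.26, 1.58 and 0.88 in caudal and 2.78, 3.50, 3.91 and 3.40 in rostral pools (difference -2.32, adjusted p = 0.00178). The neuropeptide Y receptor gene Npy1r gave -0.04, 0.89, 0.62 and 0.11 against 1.97, 1.96, 3.13 and 2.21 (adjusted p = 0.00642), and Dach2 -0.95, -1.15, -0.47 and -1.02 against 1.14, 1.10, 1.04 and 0.90 (adjusted p = 0.000549), although a second probe of Dach2 had a caudal mean of 0.13. Caln1 (-1.97), Jade2 (-1.99), Pkp1 (-1.80) and the channel gene Trpc6 (-1.84) were lower in caudal cells too. Trpc6 lost its call without caudal pool 1 or 4, without any 1 rostral pool and with the replicate number as a block (adjusted p = 0.0648).

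The remaining 5 of these 12 include genes known from platelets and macrophages. The platelet chemokine gene Ppbp gave -0.25, 0.56, 2.15 and 0.11 against 2.60, 3.19, 3.35 and 3.36 (difference -2.48, adjusted p = 0.0142), and Treml1, of platelets, -0.16, 1.29, 2.64 and 0.28 against 2.81, 3.63, 3.69 and 3.24 (adjusted p = 0.0349). Gp1ba, a platelet receptor above background on 2 of 4 caudal arrays, differed by -2.12, Thbs1 by -2.42 and the macrophage receptor gene Mrc1 by -2.07. Caudal pool 3 was the highest caudal pool for Ppbp, Treml1 and Gp1ba. Treml1 lost its call without caudal pool 1, 2 or 4 or rostral pool 2, 3 or 4, and Gp1ba without caudal pool 1, 2 or 4 or rostral pool 1, 3 or 4. The pool medians of the microglia list were -0.37 to 0.86 in caudal and -0.25 to 0.76 in rostral cells, and those of the erythroid list -4.21 to -3.12 and -3.82 to -3.50. The part of blood cells in these differences was not tested.

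**Figure D5:**
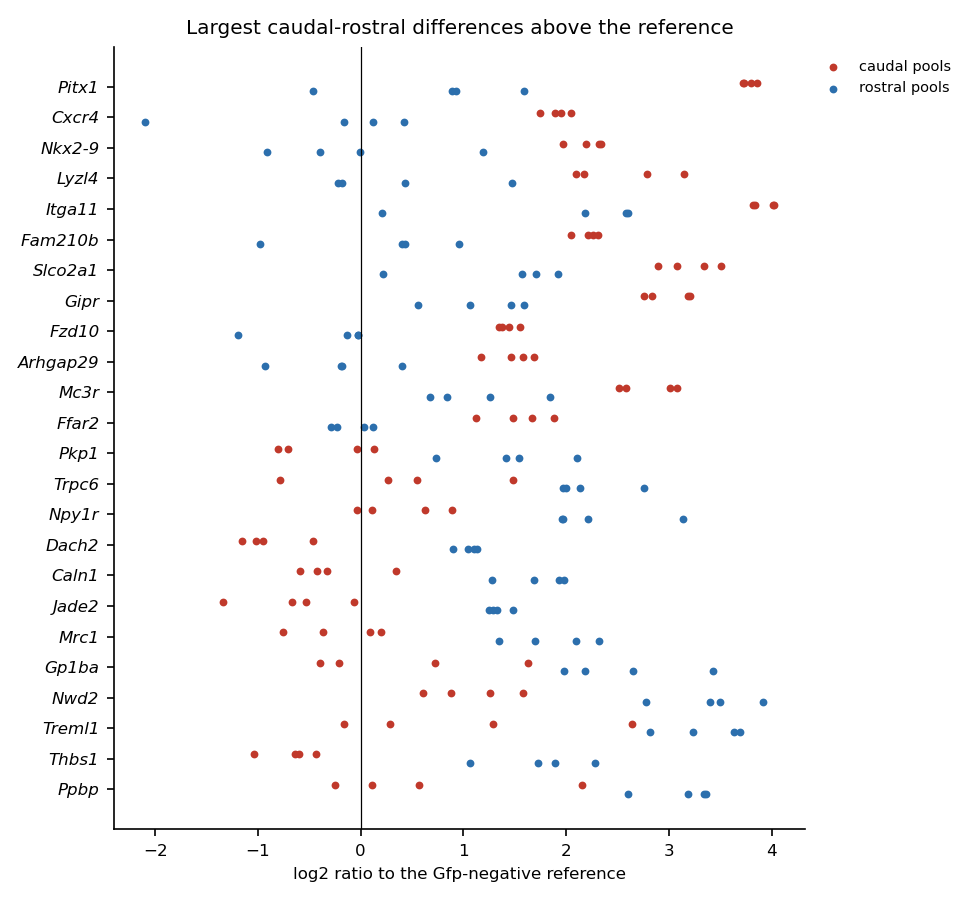
Log2 ratio to the Gfp-negative reference (horizontal axis) in 4 caudal pools (red) and 4 rostral pools (blue) for the 24 genes with the largest caudal minus rostral difference, 12 in each direction, among those at least 2-fold above the reference in either set (vertical axis). The caudal pools of Pitx1 lie between 3.72 and 3.85 and its rostral pools between -0.47 and 1.59.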

How the data were processed

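Per the file headers, the authors read 2-colour Agilent arrays with Feature Extraction 10.7.3.1. The submitters' processing notes also list RMA, without saying what it was used for. The deposited scanner files hold raw median spot and background intensities of both channels, and intensities that the scanner software had background-subtracted and dye-normalized. The deposited files also mark, as a score of 0 or 1 per spot, those well above background, saturated or outlying. A deposited annotated file gave probe annotation only: 8 of its value columns match no sample and were not used.

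Analysis used R 4.3.3, limma 3.58.1 and data.table (version 1.17.8). Background was corrected with normexp (offset 50) on median signals, since the files hold no mean signals for which the plan allowed, and ratios were normalized within arrays by loess, control and outlier spots having weight 0. Spots of a probe were averaged and outlier spots (262 to 288 per caudal array) left out. Of 55681 probes, 37850 are in the annotated table and 25517 of those carry a symbol; 2717 were brought to current RefSeq symbols (GRCm38.p6). The brightest probe over the caudal arrays stands for its gene; 1626 tested genes have 2 or more probes, and 34 have values on fewer than 4 arrays.

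The mean log2 ratio of the 4 caudal arrays was tested against 0 with lmFit and eBayes with an intensity trend. Caudal minus rostral was tested over 8 arrays. Per the series' design text the pools are biological replicates; whether a caudal and a rostral pool share embryos is not stated. Where the dimmer channel of a gene was well above background on none of the caudal arrays, its fold is a lower bound. The dim value was then raised on each array to the lowest signal that counts as well above background there, after Aquantile scaling between arrays, and a dye bias can enter it.

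Named genes were the 15 largest rises and 15 largest falls among called genes of 1 sign in all pools, all tested members of the lists of dopamine handling and of transcription factors, the 5 members with the largest ratio of each other list, the 12 largest caudal minus rostral differences in each direction among genes at least 2-fold above the reference in either set, and the 8 with the largest SD; clone names were left out, and some genes are not reported here. Clone names were judged on the current symbols. Probes that the deposited annotation names as clones or predicted genes could thus stay, as for Kcnk9, Slc10a4l and Sfta3-ps. Other list members are named by their ratios in the lists. Members, lists and tests were chosen with earlier results of these data known. On simulated ratios, 92.5% of genes changed by 2 on the log2 scale were called, 72% of those changed by 1 and 16.5% of those changed by 0.5 (200 genes of 19324, caudal against reference). Far fewer genes changed there than the 10201 called in the data. The adjustment depends on that number, so these rates do not give the sensitivity of the real comparison. Alternatives were the scanner's processed signals, median centring, 2 other filters, the mean over probes, no trend, slide row and replicate as blocks, each slide row alone and each pool left out, and, chosen after seeing the data, every probe tested.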

Additional observations from a re-analysis of the deposited data

Results flagged for a closer look

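In 10 of 191 named genes, 1 caudal pool lay far from the other 3 by Dixon's gap test. Chance flags about 1 in 20 groups, which is close to this share. In 7 of them the pool apart was pool 2: its ratio was 5.14 for Aldh1a1 (others 5.39 to 5.43), -1.81 for Maob (others -1.02 to -0.94), 1.49 for Chrna4 (others 1.34 to 1.35), 2.46 for Cck (others 2.58 to 2.60), -2.67 for Npy, -2.65 for Sst and -2.92 for Tal1 (others -4.04 to -4.0). Pool 1 stood apart for Drd2 (2.41), and pool 4 for Sema3a (-1.42) and Ptprc (0.66).

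For 72 named genes the caudal and rostral ratios to the reference differed by the limma test of the difference itself, with values given here as caudal minus rostral on the log2 scale. In 33 the caudal cells were higher. Among these, genes with a caudal mean above the reference were Pitx1 (3.04), Cxcr4 (2.34), Nkx2-9 (2.24), Lyzl4 (2.18), Itga11 (2.03), Fam210b (2.01), Slco2a1 (1.85), Gipr (1.82), Fzd10 (1.77), Arhgap29 (1.70), Mc3r (1.64), Ffar2 (1.63), Kcnk9 (0.99), Slc35d3 (0.94), Msx1 (0.92), En2 (0.90), En1 (0.78), Kcnip4 (0.61), Slc18a2 (0.56), Ret (0.42), Gch1 (0.41) and Foxa2 (0.40). Those with a caudal mean below it were Pou4f2 (2.78), Pax8 (2.09), Otx2 (2.07), Lhx4 (1.97), Tal2 (1.79), Cyp26b1 (1.56), Tfap2b (1.37), Sst (1.06), Tal1 (1.01), Fev (0.82) and Sparcl1 (0.74).

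In 39 the caudal cells were lower. Among these, genes with a caudal mean above the reference were Ppbp (-2.48), Treml1 (-2.33), Nwd2 (-2.32), Gp1ba (-2.12), Npy1r (-1.92), Trpc6 (-1.84), Bdnf (-1.17), Nefl (-1.05), Sv2b (-0.99), Cbln1 (-0.89), Pbx3 (-0.75), Ebf2 (-0.64), Aldh1a1 (-0.57) and Chrna4 (-0.44). Those with a caudal mean below it were Sfta3-ps (-4.96), Pmch (-3.47), Fezf1 (-3.23), Dlx2 (-3.13), Zic1 (-2.53), Thbs1 (-2.42), Sema3c (-2.37), Mrc1 (-2.07), Jade2 (-1.99), Caln1 (-1.97), Dach2 (-1.94), Tbx3 (-1.93), Six6 (-1.90), Pkp1 (-1.80), Nr2f2 (-1.67), Neurod2 (-1.62), Gbx2 (-1.51), Sfrp2 (-1.30), Tcf7l2 (-1.23), Nr2f1 (-1.16), Etv5 (-1.12), Fst (-1.08), Nkx2-2 (-1.05), Bcl11a (-1.01) and Isl1 (-0.65). Sfta3-ps, Six6 and Gbx2 were not above background in any caudal pool, so their differences are bounds at most, and Pmch and Fezf1 were above it in 1, so their sizes are uncertain. Of the 72 genes 54 kept their call under every alternative outside a single slide row. Chrna4, Cxcr4, Ebf2, En1, Foxa2, Fst, Gch1, Gp1ba, Itga11, Kcnip4, Ret, Sparcl1, Sv2b, Tal1, Tcf7l2, Treml1 and Trpc6 lost it without at least 1 pool, and 12 genes with the replicate block.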

How the results depend on the processing

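None of the called ratios of 191 named genes, or of the 72 named genes called different between caudal and rostral cells, changed sign under the alternatives; other genes were followed only as counts. Of 2461 values of named ratios under the alternatives, 2394 kept their side of the threshold, 35 lost their call and 32 gained one; of 1125 values of named differences (Th, Slc6a3 and Pitx3 included), 881 kept it and 244 lost it, 127 of them within a single slide row, where 2 arrays stand against 2.

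Against 10201 called genes (4773 higher, 5428 lower), the first slide row alone gave 6224 (2627 higher, 3597 lower). Leaving out 1 caudal pool gave 8541 to 9337 called, 3903 to 4366 higher and 4638 to 4971 lower. The 639 genes at least 2-fold higher became 1595 with the scanner's processed signals and 1072 with median centring, and 626 to 715 with a pool left out; the 1713 at least 2-fold lower became 1718 to 1738. The cause was not tested. Testing every probe, named or not, chosen after seeing the data, gave 19907 called probes (9760 higher, 10147 lower), 1344 at least 2-fold higher and 2623 lower, more probes being tested.

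The caudal minus rostral difference was called for 968 genes, for 574 with the replicate block, for 587 to 841 with a pool left out (587 without caudal pool 1, 614 without caudal pool 4), for 0 within the first slide row (2263 at an unadjusted p under 0.05) and for 66 within the second. Deviations of equally numbered caudal and rostral pools correlated at 0.0199, -0.0129, -0.0587 and -0.0176, and no caudal pool matched its own number best. These values cannot show whether such pools share embryos, since the spread between arrays can hide it.

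Of 754 list counts under the alternatives, 35 moved by more than 1.5 times, by at most 9 genes. That largest move took diencephalic and rostral genes called lower from 24 to 15 where both channels had to be above background on all arrays, fewer genes being tested. Microglia genes called higher went from 1 to 5 without pool 2, to 3 with the processed signals and to 0 without pool 1 or 3. Parkinson disease genes called lower went from 6 to 3 without pool 3 and pan-neuronal genes called lower from 3 to 6 with median centring. Dissociation stress genes called lower went from 5 to 3 with median centring or without pool 2. Within the first slide row, 7 in place of 12 synaptic vesicle genes and 3 in place of 7 pan-neuronal genes were called higher. Within the second, 4 in place of 7 nigral genes and 1 in place of 3 nicotinic subunits were called lower. The remaining moves were in counts of 0, 1 or 2, apart from the Parkinson disease genes called lower within the first slide row (3) and the stress genes called lower within the second (3).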

Other observations

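Genes of ribosomal proteins lay mostly below the reference. Of 78 tested genes named as ribosomal proteins, 65 were called lower and 1 higher in caudal Gfp-positive cells, with a median log2 ratio of -0.62, and 26 were at least 2-fold lower. The group was chosen after the ratio plot was seen, so no test is given. Its direction held under both other scalings: with the scanner's processed signals 53 were called lower and 2 higher (median -0.41), and with median centring 66 and 1 (median -0.85). Rps14 gave -1.91, -1.78, -1.94 and -1.94 in pools 1 to 4 (SE 0.036, adjusted p = 3.67e-07) and Rplp2 -1.93, -1.82, -1.89 and -1.98 (adjusted p = 3.20e-07). The housekeeping genes Gapdh (-1.42, -1.40, -1.32 and -1.41) and Actb (-0.93, -1.13, -0.95 and -1.13) were low in every pool as well. The ribosomal genes had a median at percentile 98.1 of the mean level over both channels (29.7 to 99.9). Other genes as bright lay on both sides of the reference. Ddc (percentile 99.6, 2.14) and Th (98.1, 3.29), of the sorted cell type, lay above it, and Gapdh (99.4) and Actb (99.8) below it. The part of brightness in their ratios was not tested.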
